A study of Mus musculus with 6 samples.

Results

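The genes described here encode Janus kinases (Jak1, Jak2 and Jak3), STAT transcription factors (Stat3, Stat4, Stat5a and Stat5b) and feedback inhibitors of the SOCS family (Socs1, Socs2 and Cish). They were chosen by name, as every probe set of these 10 genes in the deposited value table, across 3 subsets of mouse natural killer (NK) cells. Of 45037 probe sets that are not controls, 23 carried 1 of these 10 symbols and no other. A pair of further probe sets matched both Jak3 and its neighbour Insl3 and was left out.

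Janus kinases are tyrosine kinases bound to the inner tails of cytokine receptors. When a cytokine joins the receptor chains, the kinases phosphorylate the receptor and then the STAT proteins that dock there, and the phosphorylated STATs pair, enter the nucleus and bind DNA. In NK cells interleukin-15 signals through JAK1, JAK3 and STAT5 and is needed for survival, while interleukin-12 signals through JAK2, TYK2 and STAT4 and drives interferon-gamma production. SOCS proteins are transcribed in answer to this signal and shut it down, so their transcripts are often read as a trace of recent cytokine signalling.

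All cells came from spleens of RAG-/- mice, whose lymphocytes cannot assemble antigen receptors, so that T and B cells do not mature. Every group shares this defect. Cells stained for NK1.1 were sorted by flow cytometry into CD27+CD11b- cells, then CD27+CD11b+ cells, then CD27-CD11b+ cells, to give them in their usual order as stages of maturation. Each subset was profiled on 2 Affymetrix mouse expression arrays, which the series design calls independent. Neither the age of the mice nor which Rag gene was deleted is given in the labels, and they do not tie the 2 arrays of a subset to different animals. The p-values therefore cover array-to-array spread alone, part of which may be technical.

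Values are log2 expression values, and each difference between subsets is on the same scale, with its standard error (SE) from limma fitted to all 6 arrays. Means are given ± SD over n = 2 arrays. Array medians lay between 5.26 and 5.36. A gene below 6.57, the level under which 95% of 47 genes of other tissues lay, is called near background. A change was called at a Benjamini-Hochberg adjusted p under 0.05 over all 18193 named genes. The 8 NK cell markers lay between 9.84 and 14.41 on every array. The T and B cell markers Cd3e, Cd79a and Ms4a1 were near background on all 6. Cd3d ran from 8.38 in CD27+CD11b- replicate 1 to 5.52 in CD27-CD11b+ replicate 2. Of 8 T cell markers, 6 were near background in all subsets. Between CD27-CD11b+ and CD27+CD11b-, 1 of the 8 was called lower, beside 1.15% of all genes. On the linear scale the 8 summed to 563 to 800 in CD27+CD11b-, 395 to 635 in CD27+CD11b+ and 334 to 350 in CD27-CD11b+. Of 7 measured B cell markers, 6 were near background in all subsets. Against CD27+CD11b-, 1 of the 7 was called lower in CD27+CD11b+ and 1 in CD27-CD11b+. Their summed linear level was 425 to 478 in CD27+CD11b-, 234 to 256 in CD27+CD11b+ and 200 to 221 in CD27-CD11b+. The part of these markers in the differences of Socs2 and Cish was not tested. The sort description of CD27-CD11b+ replicate 1 names another gate than its title, by which it was grouped, and it read 6.96 for Cd27 and 9.93 for Itgam (CD11b), near the 6.47 and 9.44 of CD27-CD11b+ replicate 2. The arrays also fell into a division that crosses the subsets: 3 unnamed probe sets averaged 12.57 to 12.81 on CD27-CD11b+ replicate 1 and on replicate 2 of both CD27+ subsets, called the on arrays, and 4.33 to 4.47 on the other 3, called the off arrays. The mean of 18 monocyte and macrophage markers was 7.77 to 8.09 on the on arrays and 6.20 to 7.14 on the off arrays, and each division holds 1 array of every subset.

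Among the 10 genes the largest differences belonged to feedback inhibitors. Socs2 and Cish were highest in CD27+CD11b- cells and lowest in CD27-CD11b+ cells, and Jak2 followed them with a smaller difference, while Jak1 and Stat5b were somewhat higher in CD27-CD11b+ cells. Only Socs2 passed the test, in the comparison of CD27-CD11b+ with CD27+CD11b-, where 3.39% of all genes were called and 1.15% were called lower. In that comparison Jak1, Jak2, Stat5b and Cish also had an unadjusted p under 0.05, so that 5 of the 10 did, against 18.9% of all genes. None of the 10 was called between CD27+CD11b+ and CD27+CD11b-, against 0.121% of all genes in limma, and 1 had an unadjusted p under 0.05, against 3.79% of all genes. Between CD27-CD11b+ and CD27+CD11b+ none was called either, against 0.297% of all genes, and 2 had an unadjusted p under 0.05, against 11.1%. The limma F test over the 3 subsets called 0 of the 10 and 1.35% of all genes, and 4 had an unadjusted p under 0.05, against 13.6%. The arrays of the subsets did not overlap for 4 of the 10 genes in the earlier step, beside 30.3% of all genes, for 7 in the later step, beside 39.9%, and for 6 between the outer subsets, beside 51.3%. The earlier step is CD27+CD11b+ against CD27+CD11b-, the later step CD27-CD11b+ against CD27+CD11b+, and the outer comparison CD27-CD11b+ against CD27+CD11b-. The 3 comparisons share arrays and are not independent. The median difference of the 10 genes between CD27-CD11b+ and CD27+CD11b- was 0.01, beside -0.01 over all genes, with 6 positive and 4 negative.

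**Figure D1:**
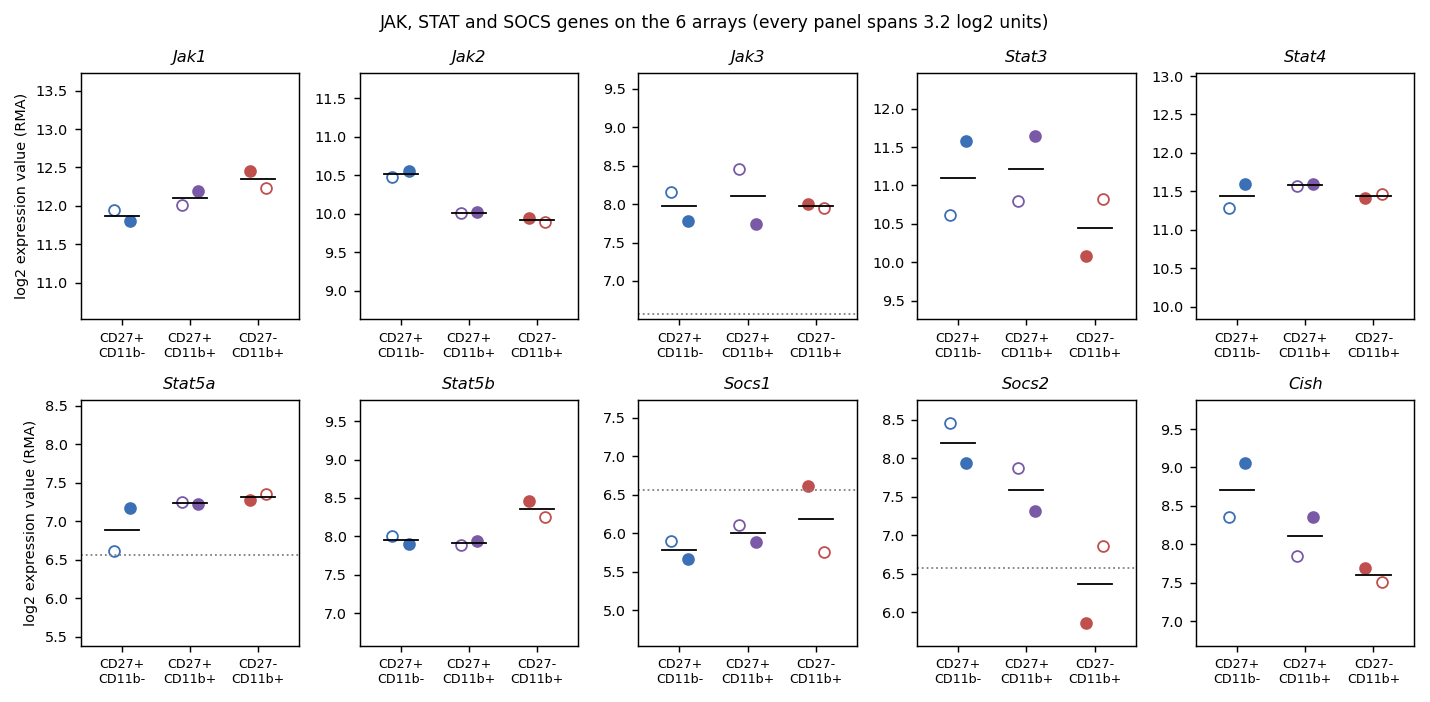
Log2 expression value (RMA) of each gene on each of the 6 arrays, by subset; filled points are on arrays, open points off arrays, black bars the mean of 2 arrays, and the dotted line the background level of 6.57. Socs2 and Cish step down from CD27+CD11b- to CD27-CD11b+, and the pairs of Jak2 lie closest together.

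Socs2 restrains growth hormone and STAT5 signalling as the substrate adaptor of a ubiquitin ligase. On its brightest probe set, 1449109_at, it read 8.46 and 7.94 in CD27+CD11b-, 7.87 and 7.32 in CD27+CD11b+, and 5.86 and 6.86 in CD27-CD11b+. The 3 subsets did not overlap, and the mean of CD27-CD11b+, 6.36 ± 0.70, was near background. Socs2 fell by 1.85 on the log2 scale from CD27+CD11b- to CD27-CD11b+ (SE 0.34, limma adjusted p = 0.0316), at least 3.11-fold when measured down to the background level. The later step, from CD27+CD11b+ to CD27-CD11b+, held more of it, at -1.23 (SE 0.34, limma adjusted p = 0.235), than the earlier one, at -0.61 (SE 0.34), though neither step passed and the difference between the steps was not tested.

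The call in Socs2 was lost when either of 2 single arrays was left out. With CD27+CD11b- replicate 1 left out the outer difference was -1.58. Leaving out CD27-CD11b+ replicate 1, the array with the discordant sort description, gave -1.35. Each of these fits leaves 1 array in a subset, and fewer of all genes were called in them too. Whether the loss is particular to Socs2 was not tested. The call was also lost with 32 added to the linear values (adjusted p = 0.0956). Within the off arrays the outer difference was -1.61 and within the on arrays -2.08. With the division as a block, Socs2 passed in the outer comparison (limma adjusted p = 6.47e-04) and also in the later step (limma adjusted p = 0.0142).

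A second probe set of Socs2, 1418507_s_at, gave the same order. It read 7.99 and 7.43 in CD27+CD11b-, 7.14 and 6.59 in CD27+CD11b+, and 4.96 and 5.68 in CD27-CD11b+, where both arrays were near background. The CD27+CD11b- mean of this probe set lay 2.21-fold above the background level. The fitted outer difference was -2.39 (SE 0.32), the single one of the 23 probe sets to pass in a limma fit over all 45037 probe sets (adjusted p = 0.0447), in which 0.639% were called. The later step called 0.04% of all probe sets and the F test 0.206%, none of them among the 23. In that outer fit 1449109_at had an adjusted p of 0.103. The call of 1418507_s_at was lost with the replicate number as a block and with 32 added to the linear values. It was also lost in most fits with 1 array left out. The suffix of 1418507_s_at marks probes that can match transcripts of more than 1 gene. The other 4 probe sets of Socs2 were near background in every subset, with outer differences from -0.78 to 0.10. Probe sets of 1 gene were read on the same RNA and are not replicates.

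**Figure D2:**
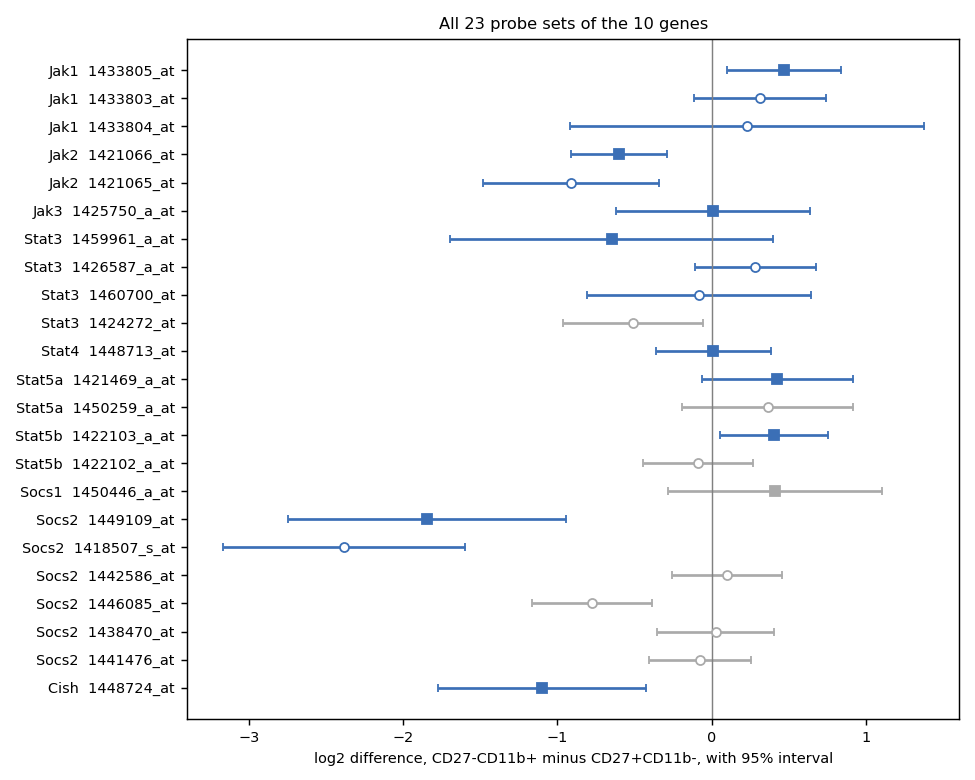
Log2 difference between CD27-CD11b+ and CD27+CD11b- with its 95% interval for each of the 23 probe sets; squares are the probe set used for the gene, circles the others, and grey marks those near background in every subset. Both brighter Socs2 probe sets and both Jak2 probe sets lie left of 0, while those of Stat3 lie on both sides.

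Cish encodes CIS, the first described SOCS protein and a direct target of STAT5, which restrains interleukin-15 signalling in NK cells. Its only probe set, 1448724_at, read 8.35 and 9.06 in CD27+CD11b-, 7.85 and 8.36 in CD27+CD11b+, and 7.70 and 7.51 in CD27-CD11b+. The values of CD27-CD11b+ lay below all others, and those of the CD27+ subsets met, 8.35 against 8.36. The outer difference was -1.10 (SE 0.26, 95% interval -1.71 to -0.50), 2.14-fold lower in CD27-CD11b+, and it did not pass (limma adjusted p = 0.0668). It did pass with the division as a block (limma adjusted p = 0.00737), when only genes above background were tested (limma adjusted p = 0.0495) and without CD27+CD11b- replicate 1 (-1.45, limma adjusted p = 0.0371). Within the off arrays the difference was -0.84 and within the on arrays -1.36. The differences of the 2 steps were close to each other, -0.60 and -0.50, both with an SE of 0.26.

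The promoter of Cish is shown because its transcript is a known readout of STAT5, and the DNA motif bound by most STATs is TTCNNNGAA. Promoter sequences of RefSeq (build GRCm38.p6, from 250 bases before the annotated start to 50 after it) were found for 9 of the 10 genes, in 12 entries, and not for Socs2. The motif was searched on both strands and reads the same on each. It occurred in the Cish entry alone among the 12, which holds 2 non-overlapping matches. Of all 32851 promoter entries, 8.30% held at least 1 match and 0.457% at least 2. The stretch lies at chr9:107296409-107296678 on the + strand, 5′ to 3′, with the matches in capitals.
Cish: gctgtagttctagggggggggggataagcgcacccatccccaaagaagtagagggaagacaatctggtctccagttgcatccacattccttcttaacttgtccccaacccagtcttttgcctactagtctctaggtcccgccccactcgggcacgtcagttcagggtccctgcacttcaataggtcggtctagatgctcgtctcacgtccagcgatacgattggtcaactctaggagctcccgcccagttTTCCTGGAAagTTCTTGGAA
The first match begins at the annotated start and the second at base 12 from it. The STAT6 form of the motif, with 1 more base between TTC and GAA, was in none of the 12 entries and in 6.95% of all. A match is a description of the letters and says nothing of binding in these cells.

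Socs1, which blocks the kinase domain of JAKs and limits interferon-gamma signalling, was near background in all subsets. Its probe set, 1450446_a_at, read 5.90 and 5.66 in CD27+CD11b-, 6.10 and 5.89 in CD27+CD11b+, and 6.62 and 5.76 in CD27-CD11b+. The subsets overlapped, and only CD27-CD11b+ replicate 1 lay above the background level. No order can be read from these values.

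Among the kinases, Jak2, which serves the receptors of interleukin-12, interferon-gamma and growth hormone, was lower in both CD11b+ subsets. Its brighter probe set, 1421066_at, read 10.48 and 10.56 in CD27+CD11b-, 10.01 and 10.02 in CD27+CD11b+, and 9.94 and 9.89 in CD27-CD11b+. The 3 subsets did not overlap, and the arrays of a subset lay within 0.08 of each other. The outer difference was -0.60 (SE 0.14, 95% interval -0.92 to -0.28), 1.52-fold lower in CD27-CD11b+, and it missed the test (limma adjusted p = 0.0624). On this probe set most of it lay in the earlier step, at -0.51 (SE 0.14, limma adjusted p = 0.760), against -0.10 (SE 0.14) in the later one. Neither step passed, and the difference between the steps was not tested. The outer difference was -0.59 within the off arrays and -0.62 within the on arrays. This outer difference passed with the division as a block (limma adjusted p = 0.0371) and with 32 added to the linear values (limma adjusted p = 0.0329). It also passed on the mean of both probe sets (limma adjusted p = 0.0496).

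The dimmer Jak2 probe set, 1421065_at, differed by -0.91 between the outer subsets (SE 0.23). Its difference was -0.58 in the earlier step and -0.33 in the later one, both with an SE of 0.23. It read 8.95 and 9.44 in CD27+CD11b-, 8.39 and 8.84 in CD27+CD11b+, and 8.40 and 8.17 in CD27-CD11b+. CD27+CD11b- lay above the rest, and the CD11b+ subsets overlapped.

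Jak1, the kinase shared by the common gamma chain, interferon and gp130 receptors, had the opposite order. Its brightest probe set, 1433805_at, read 11.94 and 11.80 in CD27+CD11b-, 12.02 and 12.19 in CD27+CD11b+, and 12.45 and 12.24 in CD27-CD11b+. The subsets did not overlap, and the outer difference was 0.47 (SE 0.16, limma adjusted p = 0.161), 1.39-fold higher in CD27-CD11b+. The probe set 1433803_at gave an outer difference of 0.31 (SE 0.18), with arrays that overlapped in the single steps and not between the outer subsets. On 1433804_at the difference of 0.23 (SE 0.48) was smaller than the gaps between arrays of 1 subset: the on array was higher by 0.45 in CD27+CD11b-, by 1.30 in CD27+CD11b+ and by 0.88 in CD27-CD11b+.

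Jak3, the kinase that binds the common gamma chain itself, read 8.16 and 7.78 in CD27+CD11b-, 8.46 and 7.74 in CD27+CD11b+, and 8.002 and 7.95 in CD27-CD11b+. All subsets overlapped. The outer difference was 0.01 with a 95% interval from -0.56 to 0.58, which leaves room for a change of up to about that size either way.

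**Figure D3:**
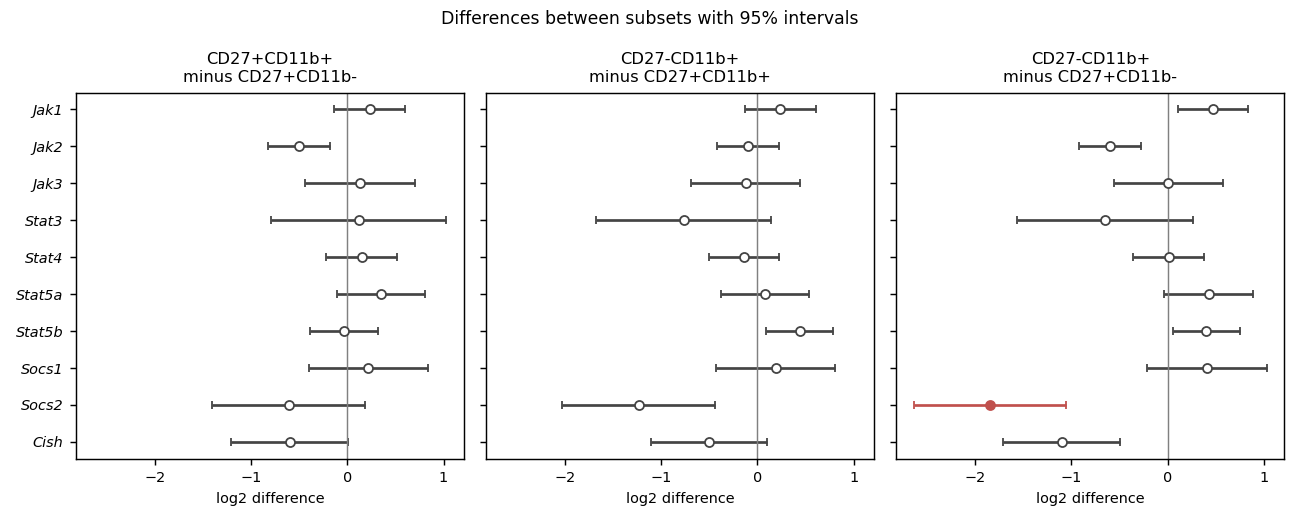
Log2 difference and 95% interval of the limma fit for each gene in the 3 comparisons; the filled red point is the one with an adjusted p under 0.05. Socs2 between the outer subsets, at -1.85, is that point. The intervals of Jak2 and Cish there also lie below 0, and those of Jak1 and Stat5b lie above 0.

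Stat4, which carries the interleukin-12 signal to Ifng, was among the genes with the smallest differences. It read 11.28 and 11.59 in CD27+CD11b-, 11.58 and 11.59 in CD27+CD11b+, and 11.42 and 11.47 in CD27-CD11b+. The outer subsets overlapped, and their difference of 0.01 had a 95% interval from -0.36 to 0.38. The limma F test over the 3 subsets gave an adjusted p of 0.877 for Stat4 and 0.958 for Jak3.

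Stat5b and Stat5a encode the near-identical STAT5 proteins that act downstream of interleukin-15, and whether the probes tell the paralogs apart was not tested. Stat5b on 1422103_a_at read 8.01 and 7.90 in CD27+CD11b-, 7.89 and 7.94 in CD27+CD11b+, and 8.47 and 8.25 in CD27-CD11b+. Both CD27-CD11b+ arrays lay above the other 4. The later step was 0.44 (SE 0.15, limma adjusted p = 0.340) and the earlier one -0.04 (SE 0.15). Between the outer subsets the difference was 0.40 (SE 0.15, limma adjusted p = 0.202).

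Stat5a on 1421469_a_at read 6.61 and 7.17 in CD27+CD11b-, 7.26 and 7.22 in CD27+CD11b+, and 7.27 and 7.36 in CD27-CD11b+. CD27+CD11b- lay below the rest, and CD27+CD11b- replicate 1 lay just above the background level. The outer difference of 0.43 (SE 0.20, limma adjusted p = 0.297) depended on the CD27+CD11b- array used: it was 0.71 with replicate 1 alone and 0.15 with replicate 2 alone. The second probe set of each gene, 1450259_a_at for Stat5a and 1422102_a_at for Stat5b, was near background in every subset.

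Stat3, the main STAT of interleukin-6, interleukin-10 and interleukin-21 receptors, gave different pictures on its probe sets. The brightest, 1459961_a_at, read 10.62 and 11.58 in CD27+CD11b-, 10.79 and 11.64 in CD27+CD11b+, and 10.08 and 10.82 in CD27-CD11b+. Replicate 2 was the higher array in every subset, by 0.74 to 0.96, and the subsets overlapped. The outer difference was -0.65 (SE 0.40, limma adjusted p = 0.430), which was 0.20 within the off arrays and -1.50 within the on arrays. On 1426587_a_at it was 0.28 (SE 0.16) and on 1460700_at -0.08 (SE 0.30), neither past the test. The dimmest, 1424272_at, was near background throughout. No direction is given for Stat3. In the RefSeq annotation of GRCm38.p6 Stat5b, Stat5a and Stat3 are consecutive genes of 1 chromosome.

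The on and off division touched the inhibitors in opposite ways. The on array was lower for Socs2 in all 3 subsets, by 0.52 in CD27+CD11b-, by 0.55 in CD27+CD11b+ and by 0.99 in CD27-CD11b+, and higher for Cish in all 3, by 0.71, 0.51 and 0.19 in the same order. Jak2 was higher in the on array by 0.08, 0.01 and 0.05. The summed linear level of 18 monocyte and macrophage markers was 6608 to 9460 on the on arrays and 3226 to 5016 on the off arrays. That of 24 cell cycle genes was 10912 to 13325 on the on arrays and 12330 to 23388 on the off arrays. Of the defining myeloid markers Csf1r lay between 8.41 and 10.72, and 4 of the 18 were near background in all subsets. By subset, 7 markers of helper innate lymphoid cells were summed, with Il7r, at 11.47 and 11.70 in CD27+CD11b-, among them. The sum was 5528 to 6866 in CD27+CD11b-, 1917 to 2204 in CD27+CD11b+ and 1262 to 1557 in CD27-CD11b+. This order of the sum, also seen in Socs2, Cish and Jak2, was not shared by all 7 genes. Their median difference was -1.61 in the earlier step, with 1 positive and 6 negative. In the later step it was -0.05, with 3 positive and 4 negative. Gata3 lay between 8.37 and 8.63 on all arrays. The cell cycle genes had a median difference of -0.48 in the earlier step, -0.88 in the later step and -1.35 between the outer subsets, where 23 of 24 were negative and 1, Mki67, fell. Their summed level was 13325 to 23388 in CD27+CD11b-, 10912 to 18593 in CD27+CD11b+ and 12247 to 12330 in CD27-CD11b+. The part of these markers in the differences of Socs2, Cish and Jak2 was not tested. In sorted populations, fewer cells with a transcript and less of it per cell cannot be told apart.

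**Figure D4:**
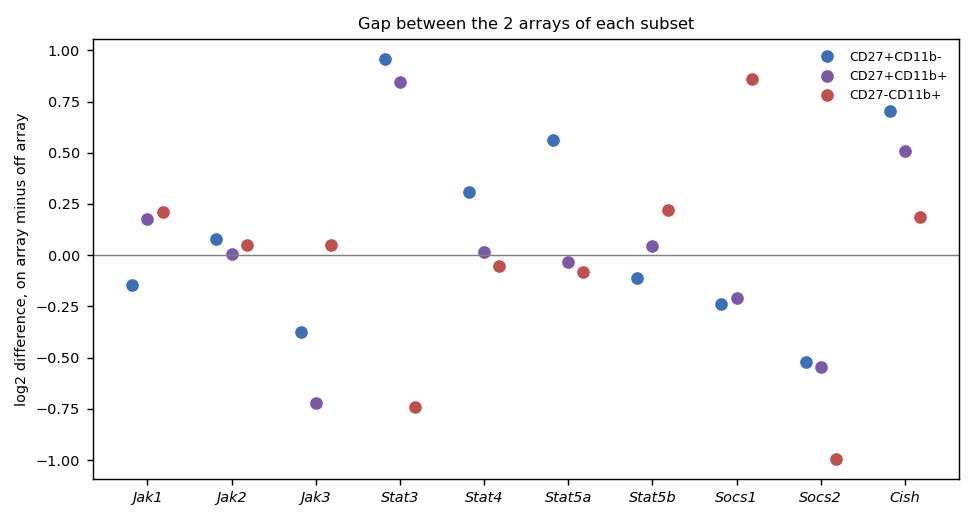
Log2 difference between the on array and the off array of each subset, for the probe set used for each gene; every point is 1 pair of arrays. The 3 points of Socs2 lie below 0 and those of Cish above it, while Stat3 lies at 0.96, 0.84 and -0.74.

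Other genes of the pathway came from 6 lists with 69 genes, of which 65 were measured by a probe set with 1 symbol. Between CD27-CD11b+ and CD27+CD11b- 9 rose and 3 fell, where 2.24% of all genes were called higher and 1.15% lower. In each single step 1 rose and 1 fell. These were Gzmb and Il7r in the earlier step, where 0.033% of all genes were called higher and 0.0879% lower. In the later step they were Prdm1 and Il7r, where 0.17% were called higher and 0.126% lower. With 32 added to the linear values 0 pathway genes were called in either step. In the outer comparison, leaving out an array of either outer subset also lowered the calls over all genes. Of the 6 fits with 1 array left out, Gzmb was called in the earlier step only without CD27+CD11b- replicate 1. Prdm1 lost its call in the later step in 3 of the 6, without either CD27+CD11b+ array or without CD27-CD11b+ replicate 1. Leaving out CD27-CD11b+ replicate 1 left 3 of the 12 outer calls, and leaving out CD27+CD11b- replicate 2 left 4. There were 8 calls without CD27+CD11b- replicate 1, Cebpb among them, and 8 when CD27-CD11b+ replicate 2 was left out, among them Bcl2, Cblb and Il12rb2, which the fit to all arrays did not call.

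Among 8 further JAK, STAT and SOCS genes, 2 rose, 1 fell and 5 did not pass between the outer subsets, with a median difference of 0.22. Tyk2, the partner of Jak2 at the interleukin-12 receptor, rose from 9.75 ± 0.01 to 10.64 ± 0.00 (0.89, SE 0.14, limma adjusted p = 0.0195). Socs3, the STAT3-induced inhibitor of gp130 signalling, fell 2.27-fold from 12.12 ± 0.19 to 10.94 ± 0.43 (limma adjusted p = 0.0405), with 12.18 ± 0.29 in CD27+CD11b+. Socs4, a less studied member of the family, rose from 7.82 ± 0.33 to 8.88 ± 0.08 (1.06, limma adjusted p = 0.0282). With 1 array left out in turn, Tyk2 kept its call in 2 of 6 fits and differences of 0.89 throughout, Socs3 in 2 with -1.48 to -0.88, and Socs4 in 3 with 0.83 to 1.30.

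Of 12 other inhibitors, Pias3, which blocks DNA binding by STAT3, rose from 6.84 ± 0.17 to 7.93 ± 0.13 between the outer subsets (1.09, SE 0.16, limma adjusted p = 0.0142) and 11 did not pass. Sh2b3, the adaptor LNK that restrains JAK2, had an outer difference of -0.68 (limma adjusted p = 0.0609), and Cblb, a ubiquitin ligase, one of -1.02 (limma adjusted p = 0.279) with an SD of 1.20 in CD27-CD11b+.

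The receptor list held 18 measured chains, of which 1 rose, 2 fell and 15 did not pass between the outer subsets. Il7r, the interleukin-7 receptor chain that signals through JAK1 and STAT5, fell from 11.59 ± 0.16 through 9.26 ± 0.18 to 7.30 ± 0.12 and was called in all 3 comparisons (outer difference -4.29, SE 0.17, limma adjusted p = 6.26e-05). Its call in the later step was lost when either CD27-CD11b+ array was left out, and its calls in both single steps were lost with 32 added. Il2ra, the high-affinity chain for interleukin-2 and itself a STAT5 target, fell by 1.93 (limma adjusted p = 0.0190), but its means were near background in every subset, from 6.46 ± 0.69 to 4.52 ± 0.02. Il10ra, which signals through JAK1 and STAT3, rose from 7.88 ± 0.14 to 9.09 ± 0.32 (1.21, SE 0.20, limma adjusted p = 0.0209).

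Known STAT targets did not move as 1 group. Of 12 genes known as targets of STAT5, 3 rose, 0 fell and 9 did not pass between the outer subsets, with a median difference of 0.06. Gzmb, the cytotoxic protease granzyme B, rose 5.64-fold (limma adjusted p = 0.00132), the cytokine Osm 2.71-fold (limma adjusted p = 0.0171) and Ccnd3, a G1 cyclin, 2.21-fold (limma adjusted p = 0.0339). Myc differed by -1.07 (limma adjusted p = 0.0798). The STAT5 targets Socs2 and Cish thus had the opposite sign to the 3 that rose. Of 9 STAT4 targets Tbx21, the factor T-bet, rose 2.14-fold (limma adjusted p = 0.0158) and 8 did not pass. Of 6 measured STAT3 targets Prdm1, the repressor Blimp-1, rose 5.06-fold (limma adjusted p = 8.25e-04) and 5 did not pass.

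**Figure D5:**
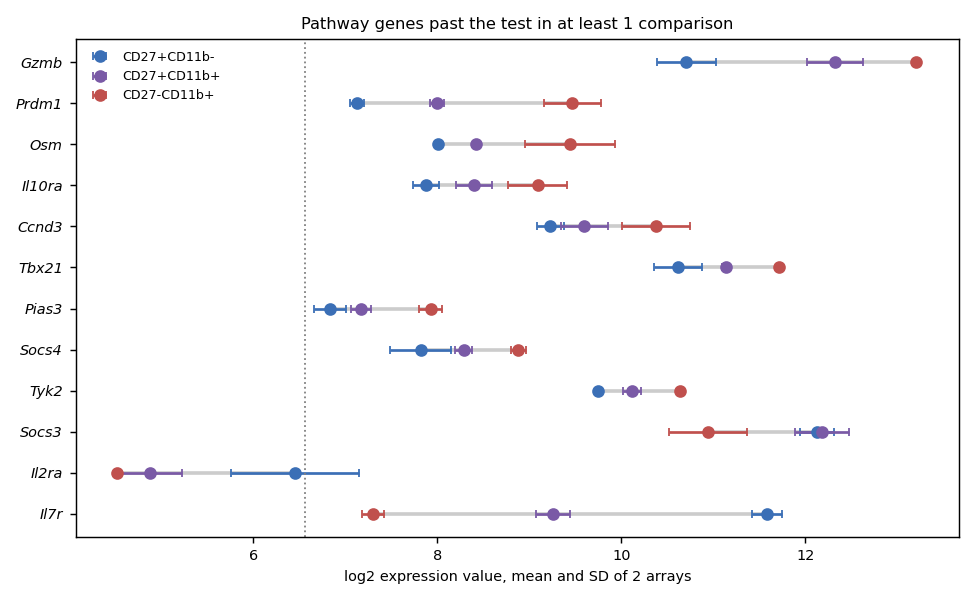
Mean log2 expression value and SD of 2 arrays in each subset for the 12 pathway genes called in at least 1 comparison; the dotted line is the background level. Il7r has the widest span, from 11.59 to 7.30, and Il2ra lies left of the line in all 3 subsets.

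The 3 genes with the smallest F-test p among the 10 were Socs2, Jak2 and Cish, and the genes with the most similar profile were sought among 8437 others above background, by Pearson's r over the 6 arrays. For Socs2 they were 2610020C07Rik, Meg3 and the WNT target Axin2, with r from 0.98 to 0.99. Axin2 was called between the outer subsets (-0.88, limma adjusted p = 0.0345), and 2610020C07Rik differed by -1.32 (limma adjusted p = 0.0578). Jak2 was followed by the adhesion receptor Adgrg3, the sulfotransferase Chst15 and the scavenger receptor family member Cd163l1, all at 0.99. Cd163l1 differed by -2.10 in the earlier step and -0.09 in the later one. Adgrg3, Chst15 and Cd163l1 were all near background in both CD11b+ subsets, as was Meg3. 2610020C07Rik and Axin2 were near background in CD27-CD11b+. Cish was followed by the adhesion molecule Dscam, at 0.996, the aryl hydrocarbon receptor Ahr and the kinase Rps6ka5, both at 0.993. Ahr differed by -2.76 between the outer subsets (limma adjusted p = 0.0295), and Dscam was near background in CD27-CD11b+. These genes were selected for a high r over 6 arrays that share their subsets, and 1.24%, 1.42% and 2.54% of the genes compared had an r above 0.90 with Socs2, Jak2 and Cish.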

How the data were processed

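RNA of 3 sorted NK cell subsets, 2 samples each, was hybridised to 1-colour Affymetrix arrays. The deposited table holds log2 values for 45101 probe sets, made by the authors with RMA, per the submitters' processing notes, with the log2 scale read from the values. Which RMA software and probe set definitions they used is not stated in the labels. RMA equalises arrays and compresses differences of dim genes. The number of arrays limits the precision.

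The 64 control probe sets were left out. The platform annotation named 34945 probe sets by 1 symbol, 932 by several and 9160 by none. For each of 18193 genes the brightest probe set, by its mean of 6 arrays, was taken. The members' other probe sets were tested in a fit over all 45037. Both fits used limma 3.58.1 (R 4.3.3). The model held a mean for each subset, with 3 degrees of freedom left to the arrays and 4.93 added by the shared prior. The scripts were tested on simulated data. No sample was dropped or imputed. Arrays were grouped by title. Named were all members, the pathway genes called in any comparison with examples of the largest outer difference, and the 3 genes most like each of 3 members. The members, lists, rules and alternatives were chosen with earlier results of these data known. Values within the on and off arrays and pathway calls under other settings were added after seeing the data.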

Additional observations from a re-analysis of the deposited data

How the results depend on the processing

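Replicate numbers, the basis of a paired analysis, did not pair the arrays across all 3 subsets. Deviations of same-numbered arrays correlated at 0.62 across 18193 genes between CD27+CD11b- and CD27+CD11b+. With CD27-CD11b+ the correlation was -0.25 for CD27+CD11b- and -0.14 for CD27+CD11b+. Replicate 1 was the on array in CD27-CD11b+ and the off array in both CD27+ subsets. With the replicate block, Socs2 alone of the 10 genes was called between the outer subsets (adjusted p = 0.0499), as without it, and the probe sets called went from 1 to 0. The division block gave 3 genes called in the outer comparison (Jak2, Socs2 and Cish) against 1, 1 in the later step against 0, 2 by the F test against 0, and 2 probe sets. Testing only genes above background called 2 genes in the outer comparison (Socs2 and Cish). Adding 32 to the linear values called 0 probe sets, and 1 gene, Jak2 in place of Socs2. On the mean of each gene's probe sets Jak2 was called and Socs2 was not (-0.83, adjusted p = 0.0540). With 1 array left out, 0 to 1 genes were called in the outer comparison and 0 to 2 probe sets in any comparison. The pathway genes called in the outer comparison numbered 21 with the division block and 6 with 32 added, against 12.

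No called difference of a gene changed sign with another model, scale or array left out. Other probe sets turned the sign of Jak1 in the later step (-0.027), of Stat3 in the later step (0.18) and outer comparison (0.28), of Stat5a in the earlier step (-0.11), of Stat5b (0.026, -0.12 and -0.092 in the earlier, later and outer comparisons) and, near background, of Socs2 (0.024, 0.0013 and 0.025 on 1438470_at; 0.0074, 0.092 and 0.10 on 1442586_at). Leaving out 1 array turned Jak3 (-0.23 to 0.49 earlier, -0.48 to 0.24 later, -0.18 to 0.20 outer), Stat3 earlier (-0.36 to 0.60), Stat4 (-0.0062 to 0.30 earlier, -0.14 to 0.17 outer), Stat5b earlier (-0.091 to 0.020) and Socs1 (-0.24 to 0.62 later, -0.020 to 0.84 outer). The cause of these turns was not tested. Signal near background limits Socs1 and 8 of the 23 probe sets.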

Other observations

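Interferon-stimulated genes are transcribed in answer to type I interferon. Of 12 measured genes of this list, 3 fell and 9 did not pass between CD27-CD11b+ and CD27+CD11b-, where 1.15% of all genes were called lower, and the median difference was -0.37. Ifit1, which binds viral RNA, went from 7.10 ± 0.25 to 5.66 ± 0.08, near background (-1.44, SE 0.19, limma adjusted p = 0.00927). Rtp4 went from 9.11 ± 0.00 to 8.01 ± 0.05 (-1.09, SE 0.14), and Ifit3 from 7.95 ± 0.10 to 6.96 ± 0.06 (-0.99, SE 0.21). Irf7, the factor that amplifies interferon production, differed by 0.23 and Mx1 by 0.50, neither past the test.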
